A study of Homo sapiens with 15 samples.

Results

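Proteasome genes were followed in MM.1S cells of 5 groups; MM.1S is a line derived from human multiple myeloma. A list of 47 gene symbols was used: the subunits of the catalytic core particle and of the regulatory particle, their assembly chaperones, the proteasome activators and the transcription factor NFE2L1. The list was drawn by symbol, with earlier results of these data known. The table used here gave values for 46 of them among its 47459 genes with values; it ends at a row with an ID and no values, so it may not be complete, and PSMB3 (ENSG00000277791), a core beta subunit, was not analysed here. All 46 passed the filter on low values, as did 16104 genes in all, and the smallest read count of a proteasome gene in any library was 15. The cells were exposed for 6 h to DMSO, the vehicle, or to 100 nM of A-485, GNE-781, both together (the combination) or dCBP-1, with 3 libraries per group. A-485 inhibits the acetyltransferase activity of EP300 and CBP, GNE-781 blocks their bromodomain, and dCBP-1 is a bifunctional degrader that brings both proteins to the cereblon ubiquitin ligase. Groups follow the sample titles. The treatment labels of combination replicates 2 and 3 read GNE-782 and GNE-783 where their titles read GNE781, and the molecule label of all 15 libraries reads genomic DNA although the titles say RNA-Seq. All cells were of 1 line, and nothing in the labels says whether the 3 libraries of a group came from separate cultures, so p-values measure the spread between libraries.

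The proteasome is the large protease that degrades ubiquitin-tagged proteins. Rings of alpha and beta subunits form its core, in which some beta subunits carry the active sites, and a regulatory particle caps the core: its base holds a ring of ATPases that unfold substrates, and its lid removes ubiquitin. Immunoproteasome beta subunits replace the standard ones in immune cells, and NFE2L1 raises transcription of the subunit genes when proteasome activity falls. Plasma cells and myeloma cells secrete much protein and depend on the proteasome, which is a drug target in myeloma, and degraders such as dCBP-1 act through it.

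The libraries held 13.1 to 18.3 M reads assigned to genes. Plasma cell markers were abundant in DMSO, with SDC1 at 6254 to 7369 normalised reads, and markers of other cell types were low or at 0 (CD3D and CSF1R at 0 in all 15 libraries). DMSO replicates 1 and 2 stood apart from DMSO replicate 3 and from the treated libraries: 23.1% and 19.7% of their reads came from mitochondrial genes, while DMSO replicate 3 had 16.4% and treated libraries 14.3 to 17.0%, and 16270 and 17395 genes were detected at equal depth, against 18740 to 20559 in the other 13. The proteasome genes moved with this split. In 13 of 46 (28.3%) both of these libraries lay below all 13 others, against 10.8% of all genes tested, and in 1 (2.17%), the lid deubiquitinase PSMD14, both lay above, against 4.97%. The comparisons with DMSO are therefore given with all 3 DMSO libraries and again without replicates 1 and 2. The part of the mitochondrial share and of the number of genes detected in the results was not tested. These are bulk samples with values relative to the other genes of a library, so fewer cells and less RNA per cell cannot be told apart.

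With dCBP-1, 12 of 46 proteasome genes were called higher than in DMSO (26.1%, against 19.3% of all genes tested) and 6 lower (against 18.5%), where a call is an adjusted p below 0.05 in limma over all 16104 genes. Most changes were small: the median log2 fold change was 0.13 over the 46 genes and 0.065 over all genes. A called change of at least 2-fold was seen in 2 of 46 proteasome genes, PSMC1 and PSMB7, while 16.3% of all genes tested changed that much. All dCBP-1 libraries were above all DMSO libraries for 12 of 46 proteasome genes, against 21.8% of all genes tested. They were below them for 9 of 46, against 22.5%. A lack of overlap, given for single genes below, was thus frequent among all genes. The rises were concentrated in the base of the regulatory particle by count (7 of 10 genes), with 2 of 6 standard core beta genes, 2 of 8 lid genes and 1 of 4 core chaperones. The falls were spread over the lid (3 of 8), core alpha (1 of 7), core beta (1 of 6) and activators (1 of 4). None of 3 immunoproteasome beta genes and none of 3 base chaperones was called. At an unadjusted p below 0.05 stood 1 and 0 of them, against 7354 of the 16104 genes tested. PSMB9 was called lower by edgeR and DESeq2, which called no base chaperone.

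**Figure D1:**
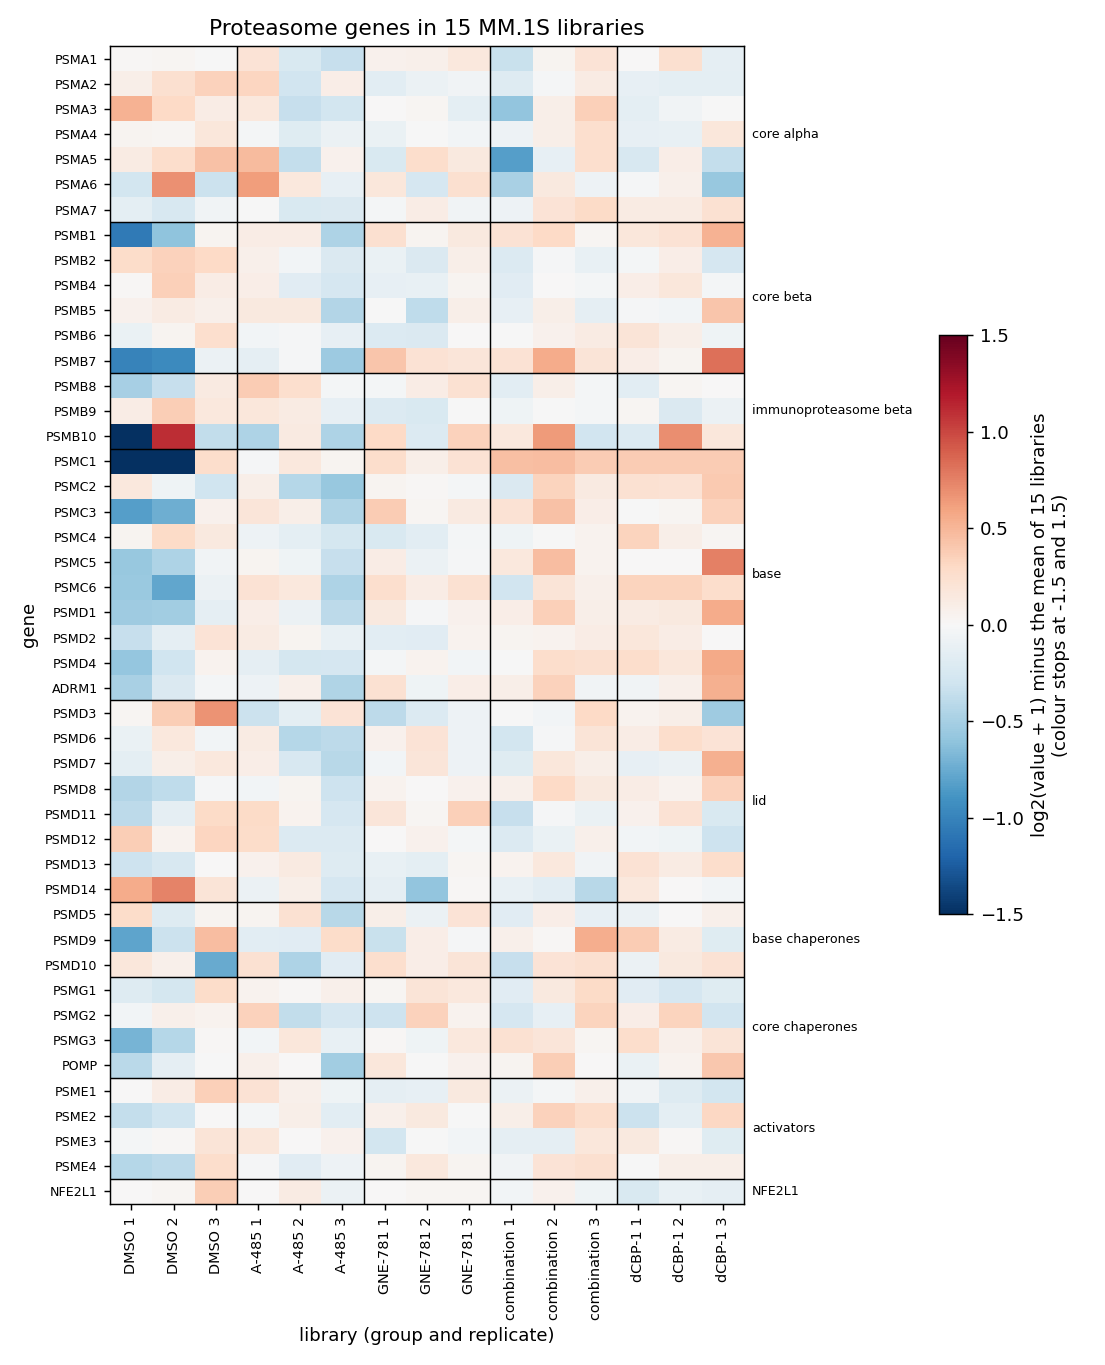
Each row is a proteasome gene and each column a library; colour is log2(value + 1) minus the gene's mean over the 15 libraries, stopping at -1.5 and 1.5. The blue cells gather in DMSO replicates 1 and 2, where 13 of 46 genes lay below all 13 other libraries.

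The 7 called base genes rose from 1.35-fold to 2.73-fold and none fell. PSMC1, an ATPase of the base ring, had normalised read counts of 351, 306 and 1306 in DMSO replicates 1, 2 and 3, 1077, 1213 and 1116 with A-485, 1308, 1155 and 1261 with GNE-781, 1482, 1494 and 1419.6 with the combination and 1418, 1421 and 1415 with dCBP-1. DMSO replicates 1 and 2 were far below every other library, DMSO replicate 3 lay inside the range of the treated libraries, and the DMSO and dCBP-1 groups did not overlap. Its log2 fold change with dCBP-1 was 1.45 ± 0.27 (SE, n = 3 per group; adjusted p = 0.000101). PSMD1, the large scaffold subunit of the base, stood at 1894, 1898 and 2496 in DMSO, 2084 to 3502 in the 9 libraries of the other 3 treatments and 2969.7, 3023 and 4022 with dCBP-1. All 3 DMSO libraries were below all dCBP-1 libraries, and the log2 fold change was 0.67 ± 0.15 (SE, n = 3 per group; adjusted p = 0.000547). PSMD4, a ubiquitin receptor, had 2445, 2987 and 3791 in DMSO and 4417, 4119 and 5442 with dCBP-1, groups that did not overlap, with a log2 fold change of 0.61 ± 0.14 (SE, n = 3 per group; adjusted p = 0.000992). The ATPases PSMC6 (log2 fold change 0.78), PSMC5 (0.62) and PSMC3 (0.62) and the ubiquitin receptor ADRM1 (0.43) were also called higher. PSMC2, PSMC4 and PSMD2 were not, at 0.35, -0.0073 and 0.19. Under TMM, median-ratio and quantile scaling 8, 7 and 9 of the 10 base genes were called higher and 0 lower. All of these scalings keep DMSO replicates 1 and 2. The share of all genes called under each scaling is not given here or for the lid below. The calls of PSMC1, PSMC6, PSMD1 and PSMD4 held when each of the 6 libraries was left out in turn. The call of PSMC3 ended without DMSO replicate 1 (0.46) or 2 (0.50), that of PSMC5 without dCBP-1 replicate 3 (0.37), and that of ADRM1 without DMSO replicate 1 (0.31), DMSO replicate 2 (0.44) or dCBP-1 replicate 3 (0.26).

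Lid genes moved in both directions. PSMD14, the deubiquitinase that strips ubiquitin chains from substrates, was at 8928, 10198 and 6949 normalised reads in DMSO, 4031 to 6432 in the A-485, GNE-781 and combination libraries and 6785, 6097 and 5907 with dCBP-1. Every DMSO library was above every treated one, by a narrow margin for DMSO replicate 3, and the log2 fold change with dCBP-1 was -0.46 ± 0.15 (SE, n = 3 per group; adjusted p = 0.02). PSMD3 stood at 5893, 7476 and 9261 in DMSO and 6019, 6129.9 and 3995 with dCBP-1; the groups overlapped, and its log2 fold change was -0.49 ± 0.17 (SE, n = 3 per group; adjusted p = 0.0237). PSMD12 was called lower as well (-0.38). In the other direction PSMD8 had 1829.7, 1905 and 2446 in DMSO and 2684, 2579.9 and 3155 with dCBP-1, without overlap, and a log2 fold change of 0.45 ± 0.13 (SE, n = 3 per group; adjusted p = 0.00785). PSMD13 had 2332, 2454 and 2918 against 3373, 3149 and 3488, also without overlap, and a log2 fold change of 0.38 ± 0.13 (SE, n = 3 per group; adjusted p = 0.0172). PSMD6, PSMD7 and PSMD11 were not called, at 0.19, 0.076 and 0.099. TMM and median-ratio scaling gave the same counts for the lid, 2 higher and 3 lower, and quantile normalization 2 higher and 0 lower. Each of these 5 lid calls ended when a single library was left out. Without dCBP-1 replicate 3 the values were 0.37 for PSMD8, 0.35 for PSMD13, -0.42 for PSMD14, -0.29 for PSMD3 and -0.30 for PSMD12. Calls also ended without DMSO replicate 1 for PSMD13 (0.32), PSMD14 (-0.43) and PSMD12 (-0.32), without DMSO replicate 2 for PSMD13 (0.35), PSMD14 (-0.33) and PSMD3 (-0.48), without DMSO replicate 3 for PSMD3 (-0.33) and PSMD12 (-0.35), and without dCBP-1 replicate 2 for PSMD14 (-0.44).

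The promoters of 2 base genes and 2 lid genes are shown. In each direction of the dCBP-1 calls, the gene with the smallest p was taken (PSMC1 and PSMD14). The gene with the smallest p among those with the response element named below was added (PSMD1 and PSMD3). PSMD1 and PSMD3 were thus chosen for holding that element. RefSeq windows of 300 bases (250 before to 50 after the start site, GRCh38.p14) were found for 41 of the 47 genes, without PSMA7, PSMB1, PSMB6, PSMB7, PSMD4 and PSMG3. Capitals mark, on either strand, TGACNNNGC (the core of the antioxidant response element, which NFE2L1 binds with a small MAF partner), the CCAAT box CCAAT and the E box CACGTG; adjoining or overlapping matches run together. The 4 windows are chr14:90256303-90256602 (PSMC1, called higher), chr2:231056617-231056916 (PSMD1, called higher), chr2:161308175-161308474 (PSMD14, called lower) and chr17:39980557-39980856 (PSMD3, called lower), all on the plus strand.
PSMC1: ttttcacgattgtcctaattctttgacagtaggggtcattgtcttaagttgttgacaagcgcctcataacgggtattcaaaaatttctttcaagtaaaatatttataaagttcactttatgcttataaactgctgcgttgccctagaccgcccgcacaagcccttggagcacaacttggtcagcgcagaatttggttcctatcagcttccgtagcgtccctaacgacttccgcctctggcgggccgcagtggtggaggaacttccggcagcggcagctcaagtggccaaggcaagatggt
PSMD1: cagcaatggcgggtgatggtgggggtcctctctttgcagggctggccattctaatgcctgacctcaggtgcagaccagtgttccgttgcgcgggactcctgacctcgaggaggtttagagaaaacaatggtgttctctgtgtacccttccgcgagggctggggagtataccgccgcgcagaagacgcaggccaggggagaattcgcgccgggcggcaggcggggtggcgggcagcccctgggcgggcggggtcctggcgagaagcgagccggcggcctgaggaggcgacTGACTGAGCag
PSMD14: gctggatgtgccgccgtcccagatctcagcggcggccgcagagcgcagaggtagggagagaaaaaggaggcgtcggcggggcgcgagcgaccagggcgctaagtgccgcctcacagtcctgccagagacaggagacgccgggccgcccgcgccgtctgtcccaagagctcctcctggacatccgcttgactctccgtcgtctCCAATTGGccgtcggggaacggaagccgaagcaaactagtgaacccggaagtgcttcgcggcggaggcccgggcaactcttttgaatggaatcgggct
PSMD3: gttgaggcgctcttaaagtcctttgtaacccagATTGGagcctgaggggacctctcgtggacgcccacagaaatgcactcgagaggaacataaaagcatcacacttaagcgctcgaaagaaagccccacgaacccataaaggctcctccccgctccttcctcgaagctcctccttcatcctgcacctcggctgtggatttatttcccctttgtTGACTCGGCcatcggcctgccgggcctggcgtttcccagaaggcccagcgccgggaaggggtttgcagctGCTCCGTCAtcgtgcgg
The PSMC1 window held none of these motifs, PSMD1 held the response element, PSMD14 the CCAAT box and PSMD3 both. TGACNNNGC was found in 14 of 41 proteasome windows (34.1%) and in 13.6% of 27305 RefSeq promoter windows of the same length, CCAAT in 20 (48.8%) against 35.7%, and CACGTG in 3 (7.32%) against 7.43%. Of the 13 measured genes with TGACNNNGC, 2 were called higher (ADRM1 and PSMD1) and 3 lower (PSMD3, PSMD12 and PSME1) with dCBP-1, at a median log2 fold change of -0.0073. Of the 27 without it, 6 were called higher and 3 lower, at a median of 0.099. The genes without a window are in neither count, and of these PSMB1, PSMB7, PSMD4 and PSMG3 were called higher. The match is of letters only and says nothing of binding.

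In the core particle, PSMB7, the beta subunit with trypsin-like activity, had 829, 858 and 1563 normalised reads in DMSO, 1137 to 2448 in the A-485, GNE-781 and combination libraries and 1787, 1708 and 2945 with dCBP-1. DMSO replicates 1 and 2 were the lowest of the 15 libraries and dCBP-1 replicate 3 the highest; DMSO and dCBP-1 did not overlap. The log2 fold change was 1.004 ± 0.20 (SE, n = 3 per group; adjusted p = 0.000174). PSMB1 had 1228, 1688 and 2640.1 in DMSO and 2899, 2973 and 3674 with dCBP-1, again without overlap, and a log2 fold change of 0.84 ± 0.18 (SE, n = 3 per group; adjusted p = 0.000549). PSMB2 went the other way, from 3860.3, 4080.2 and 3951 to 3137, 3422 and 2681, also without overlap, and its log2 fold change was -0.37 ± 0.13 (SE, n = 3 per group; adjusted p = 0.0216). That call ended without DMSO replicate 2 (-0.35) or dCBP-1 replicate 3 (-0.27). PSMB5, the chymotrypsin-like subunit that bortezomib and carfilzomib inhibit, was at 1256, 1302 and 1266 in DMSO, 884 to 1331 with the other 3 treatments and 1187, 1164 and 1595 with dCBP-1. Its groups overlapped, and the log2 fold change was 0.03 ± 0.16 (SE, n = 3 per group; adjusted p = 0.902), with a 95% interval of -0.29 to 0.35. PSMB4 and PSMB6 were at -0.083 and 0.0057.

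Of the 7 alpha ring genes, PSMA2 was the 1 called, with 881, 975 and 1054 normalised reads in DMSO and 759, 746 and 748 with dCBP-1. The groups did not overlap and the log2 fold change was -0.37 ± 0.14 (SE, n = 3 per group; adjusted p = 0.0454); the call ended without DMSO replicate 2 (-0.36) or 3 (-0.30) or any 1 of the dCBP-1 replicates (-0.37 to -0.36). PSMA7 had 6714, 6286 and 7163 against 8133, 8103 and 8742, and its log2 fold change of 0.31 ± 0.13 (SE, n = 3 per group; adjusted p = 0.0567) missed the threshold although the groups did not overlap. PSMA3 had 1370.4, 1178 and 1031 against 862, 922 and 953, likewise without overlap, and a log2 fold change of -0.38 ± 0.18 (SE, n = 3 per group; adjusted p = 0.0917). The other 4 alpha genes ranged from -0.44 (PSMA5) to 0.019 (PSMA1).

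**Figure D2:**
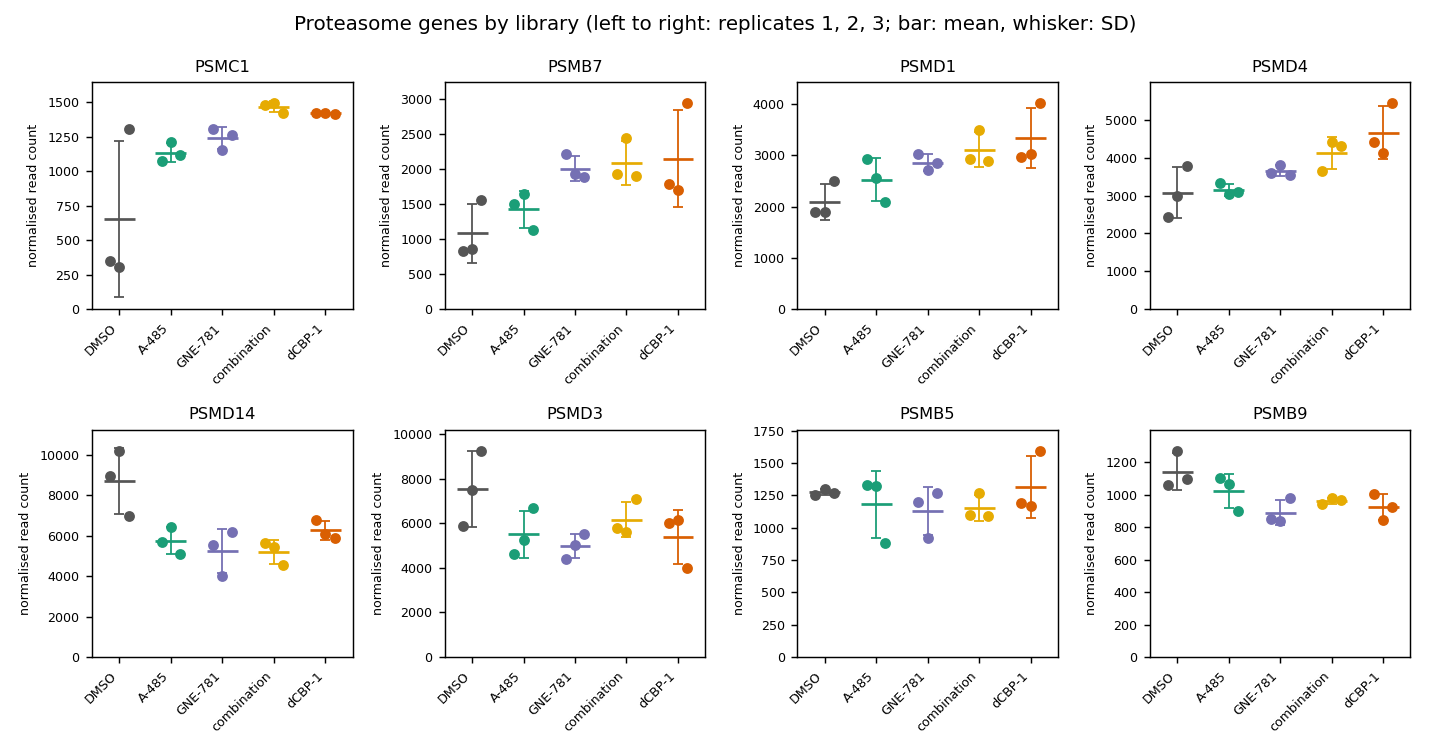
Normalised read counts of 8 proteasome genes; points are libraries in the order of replicates 1, 2 and 3, bars are group means and whiskers SD (n = 3). DMSO replicates 1 and 2 lie far below every other library for PSMC1 (351 and 306, against 1077 or more), PSMD14 is highest in DMSO, and the DMSO and dCBP-1 libraries overlap for PSMB5.

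The immunoproteasome genes were expressed in the untreated line and none passed the test with dCBP-1. PSMB8 had 519.9, 578 and 807 normalised reads in DMSO and 657, 746 and 734 with dCBP-1, with overlap and a log2 fold change of 0.19 ± 0.15 (SE, n = 3 per group; adjusted p = 0.357). PSMB9 had 1063, 1272 and 1096 against 1005, 845 and 924, without overlap, and -0.31 ± 0.13 (SE, n = 3 per group; adjusted p = 0.0661). PSMB10 was low and scattered, at 14.4, 96 and 34 against 38.2, 71.9 and 49.8, and its 95% interval of -0.38 to 1.36 leaves more than a 2-fold change in reach. Among the activators, PSME1, a subunit of the interferon-inducible cap, had 3015, 3245 and 3843 in DMSO and 2895, 2628 and 2479 with dCBP-1, and did not overlap. Its log2 fold change was -0.33 ± 0.13 (SE, n = 3 per group; adjusted p = 0.0422), and it lost its call without DMSO replicate 2 (-0.35) or 3 (-0.23) or dCBP-1 replicate 2 (-0.32) or 3 (-0.28). Its partner PSME2 had 999, 1037 and 1287 against 1024, 1151 and 1586, with overlap and a log2 fold change of 0.16 ± 0.15 (SE, n = 3 per group; adjusted p = 0.409); whether the 2 partners differ was not tested. PSME4, the activator of nuclear proteasomes, had 930.2, 957 and 1509 against 1249.7, 1334 and 1328, with DMSO replicate 3 the highest of the 6, and 0.24 ± 0.15 (SE, n = 3 per group; adjusted p = 0.209). PSME3 was at -0.07.

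Of the chaperones, PSMG3, which helps to build the alpha ring, had 1508, 1819 and 2469 normalised reads in DMSO and 2928, 2586 and 2804 with dCBP-1, without overlap, and a log2 fold change of 0.55 ± 0.14 (SE, n = 3 per group; adjusted p = 0.00292). POMP, which matures the core and joins its parts, had 1446, 1749 and 1909 against 1789, 1987 and 2549, with overlap and 0.30 ± 0.16 (SE, n = 3 per group; adjusted p = 0.131). PSMG1 had 846, 808 and 1171 against 866, 814 and 856, with overlap and -0.14 ± 0.14 (SE, n = 3 per group; adjusted p = 0.493), and PSMG2 was at 0.016. The base chaperones PSMD9, PSMD10 and PSMD5 were at 0.32, 0.26 and -0.04, each with overlapping groups; PSMD9 ranged most within DMSO, at 413, 568 and 986. NFE2L1 itself had 1417, 1431 and 1811 in DMSO, 1324 to 1537 with the other 3 treatments and 1198, 1304 and 1285 with dCBP-1. All dCBP-1 libraries were below all others, and the log2 fold change of -0.29 ± 0.12 (SE, n = 3 per group; adjusted p = 0.0675) missed the threshold; edgeR and DESeq2 called it lower.

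Without DMSO replicates 1 and 2, which leaves DMSO replicate 3 as the lone control library and assumes that it varies as the other groups do, none of the 12 genes called higher with dCBP-1 was called. PSMC1 went to 0.12 (adjusted p = 0.638), PSMB7 to 0.41 (0.23), PSMD1 to 0.41 (0.137), PSMD4 to 0.29 (0.242) and PSMG3 to 0.17 (0.509). All 12 kept a positive sign, and 11 of the 12 (all but ADRM1) were among the 13 genes in which DMSO replicates 1 and 2 lay below all other libraries. In that fit 1 gene was called higher (against 7.75% of all genes tested), PSMD10 at 0.84 (0.0213), and 3 lower (against 15.8%): PSMD3 at -0.81 (0.00848), PSME1 at -0.53 (0.0232) and NFE2L1 at -0.52 (0.0183). PSMD10 had 282, 263 and 148 normalised reads in DMSO, so replicate 3 was the low library there. The median log2 fold change was -0.022 over the 46 genes and -0.12 over all genes. The count of genes called lower with all 3 DMSO libraries, 6, went to 1 without DMSO replicate 2, 3 without DMSO replicate 3, 3 without dCBP-1 replicate 2 and 0 without dCBP-1 replicate 3.

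**Figure D3:**
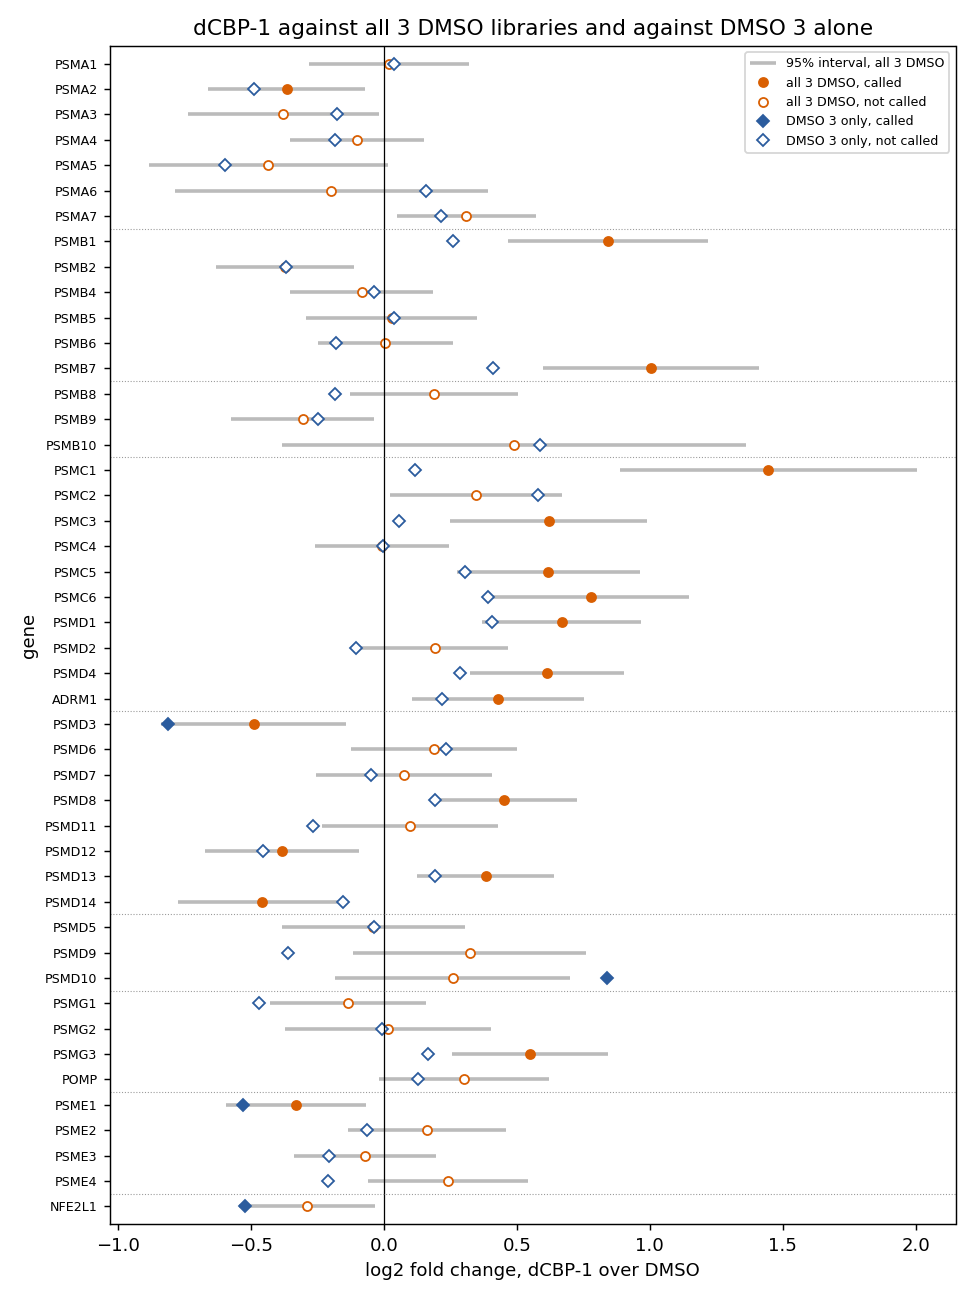
Log2 fold change of each proteasome gene with dCBP-1: circles against all 3 DMSO libraries (grey line, 95% interval), diamonds against DMSO replicate 3 alone, filled where called. PSMC1 moves from 1.45 to 0.12, and the 4 filled diamonds are PSMD3, PSMD10, PSME1 and NFE2L1.

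Fewer proteasome genes were called with the other treatments against the same DMSO libraries, so these comparisons share their controls. With the combination, 10 of 46 were called higher (21.7%, against 11.4% of all genes tested) and 2 lower (4.35%, against 9.6%). With GNE-781, 6 were called higher (against 7.82%) and 3 lower (6.52%, against 8.81%). With A-485, 1 was called higher (2.17%, against 0.348%) and 1 lower (2.17%, against 1.79%). PSMC1 was the gene called higher with A-485, at 1.12 ± 0.27 (SE, n = 3 per group; adjusted p = 0.0243), and it was at 1.25 with GNE-781 and 1.49 with the combination (adjusted p = 0.00195 and 0.000247). PSMD14 was the gene called lower with A-485, at -0.59 ± 0.15 (SE, n = 3 per group; adjusted p = 0.039), and was called lower with GNE-781 (-0.73, adjusted p = 0.00144) and the combination (-0.73, 0.00114) too. PSMB7 was called higher with GNE-781 (0.95, 0.00132) and the combination (1.001, 0.000556) and was at 0.45 with A-485, and PSMC3 was called higher with both (0.68 and 0.75). PSMB1 and PSMD1 were called higher with both as well, PSMC6 with GNE-781, and PSMC5, PSMD4, PSMD8, PSMG3 and PSME2 with the combination. PSMB2 was called lower with both (-0.38 and -0.42) and PSMD3 with GNE-781 (-0.58). PSMB5, POMP, NFE2L1 and the 3 immunoproteasome genes were called in none of these comparisons by limma, where PSMB9 came nearest, at -0.36 with GNE-781 (adjusted p = 0.0562). The count models called some of them: edgeR and DESeq2 both called PSMB8 higher with A-485 and with GNE-781 and PSMB9 lower with GNE-781, and DESeq2 called PSMB9 lower with the combination. For PSMB8, DMSO replicates 1 and 2 lay below all other libraries, and DMSO replicate 3 lay inside the range of the treated libraries. The count models were not run without DMSO replicates 1 and 2. In limma PSMB8 stood at 0.43 with A-485 and 0.34 with GNE-781 (adjusted p = 0.148 and 0.133) and PSMB9 at -0.24 with the combination (0.193). The PSMC1 call with A-485 ended under edgeR (0.94, adjusted p = 0.0766) and DESeq2 (0.92, 0.152), and that with GNE-781 under DESeq2 (0.97, 0.0617) and with a robust variance prior in limma (1.25, 0.0629).

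Leaving out DMSO replicates 1 and 2 ended these calls too, apart from 1. With the combination 0 genes were called higher (against 1.76% of all genes tested) and 0 lower (against 4.84%). With GNE-781 1 was higher (against 0.987%), PSMD10 at 0.94, and 1 lower (against 4.5%), PSMD3 at -0.90, which was the call that remained. With A-485 0 were higher and 0 lower (against 0.0373% of all genes each way). The sign of PSMC1 reversed in that fit with GNE-781 (-0.075) and A-485 (-0.20). Single libraries mattered as well. With the combination the count of higher genes went from 10 to 4 when DMSO replicate 1 was left out and to 6 when combination replicate 2 was, and that of lower genes from 2 to 1 without DMSO replicate 2 or combination replicate 1 and to 4 without combination replicate 3. With GNE-781 the higher count went from 6 to 3 without DMSO replicate 1, DMSO replicate 2 or GNE-781 replicate 1 and to 13 without DMSO replicate 3, and the lower count from 3 to 1 without DMSO replicate 2 or GNE-781 replicate 1 or 2. Both A-485 calls ended without DMSO replicate 1 (PSMC1 0.84, PSMD14 -0.56), DMSO replicate 2 (0.74 and -0.46) or any 1 of the A-485 replicates. Without DMSO replicate 3, which leaves DMSO replicates 1 and 2 as the controls, 7 genes were called higher with A-485. Counts on leaving out single libraries, here and elsewhere, are given without the share of all genes called in the same fit. They show only how far the calls depend on a library. The calls of PSMB7 and PSMC1 with GNE-781, of PSMB7, PSMC1, PSMC3 and PSMD1 with the combination and of PSMD14 with both held when each single library was left out.

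Comparisons between treated groups leave DMSO out of the fold change but not out of the estimate of the spread, which all groups share. All 10 pairs of the 5 groups were compared, and p-values were adjusted over genes within each. Between dCBP-1 and the combination, the degrader against both inhibitors at once, 0 of 46 proteasome genes were called in either direction by limma, against 0.553% of all genes higher and 5.61% lower. The count was also 0 by edgeR and by DESeq2. At an unadjusted p below 0.05 it was 0 too, against 2589 of the 16104 genes tested. The log2 differences ran from -0.29 (PSMG1) to 0.31 (PSMC6). The 95% interval of the difference lay within 1.5-fold in both directions for 41 of 46 genes and within 2-fold for all 46; PSMB10 had the widest, -0.82 to 0.92.

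Against A-485, dCBP-1 gave 5 genes called higher (10.9%, against 12.9% of all genes tested) and 0 lower (against 11.6%), with edgeR calling 6 and 2 and DESeq2, which did not call PSMB7, 6 and 3. PSMD4 had 3327, 3043 and 3087 normalised reads with A-485 and 4417, 4119 and 5442 with dCBP-1; the groups did not overlap and the log2 difference was 0.55 ± 0.14 (SE, n = 3 per group; adjusted p = 0.00409). The base ATPase PSMC2 had 1371, 957 and 868 against 1512, 1502 and 1691, without overlap, and 0.58 ± 0.16 (SE, n = 3 per group; adjusted p = 0.00649). PSMB7 had 1509.6, 1646 and 1137 against 1787, 1708 and 2945, with 0.56 ± 0.20 (SE, n = 3 per group; adjusted p = 0.0392), and no overlap. The lid gene PSMD6 had 884, 603 and 615 against 875, 973 and 937, overlapping at A-485 replicate 1, and 0.43 ± 0.15 (SE, n = 3 per group; adjusted p = 0.0392). PSMD1 had 2924, 2561 and 2084 against 2969.7, 3023 and 4022, without overlap, and 0.40 ± 0.15 (SE, n = 3 per group; adjusted p = 0.0425). Among these 5, the call of PSMD4 held when each of the 6 libraries was left out in turn. The others ended without A-485 replicate 3 (PSMC2 0.45, PSMB7 0.40, PSMD1 0.27, PSMD6 0.34), and without dCBP-1 replicate 3 for PSMB7 (0.31), PSMD1 (0.26) and PSMD6 (0.42). PSMB7 also lost its call without A-485 replicate 1 (0.60), PSMD1 without A-485 replicate 2 (0.42), and PSMD6 without A-485 replicate 2 (0.33) or dCBP-1 replicate 1 (0.47) or 2 (0.39). The count was 3 without A-485 replicate 2, 1 without A-485 replicate 3 and 2 without dCBP-1 replicate 3, and with DMSO replicates 1 and 2 left out of the shared spread it was 8, against 15.6% of all genes.

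Against GNE-781, dCBP-1 gave 0 genes called higher (against 2.19% of all genes tested) and 0 lower (against 7.13%) by limma. At an unadjusted p below 0.05 stood 4 proteasome genes, against 3409 of the 16104 genes tested. The 4 were PSMD4 at 0.34 (95% interval 0.05 to 0.63), PSMC4 at 0.29, PSMD13 at 0.28 and PSMG1 at -0.33. On the recovered reads edgeR called PSMD4 higher, and DESeq2 called PSMD4, PSMC4 and PSMD13 higher and PSMG1 lower. For 36 of 46 genes the interval lay within 1.5-fold and for all 46 within 2-fold. The combination against GNE-781 gave 0 calls in the whole table (0% higher and 0% lower). At an unadjusted p below 0.05 stood 1 proteasome gene, PSMD11 at -0.34, against 494 of the 16104 genes tested. By edgeR and DESeq2, 0 proteasome genes were called. The combination against A-485 gave 0 proteasome genes higher (against 1.63% of all genes) and 0 lower (against 1.57%). At an unadjusted p below 0.05 stood 7, led by PSMB7 at 0.55 and PSMD4 at 0.38, against 2868 of the 16104 genes tested. Here edgeR called 0 and DESeq2 called PSMB8 lower. GNE-781 against A-485 gave 0 higher (against 0.273%) and 0 lower (against 0.727%), and 0 by edgeR and DESeq2. At an unadjusted p below 0.05 stood 1, PSMB7 at 0.50, against 1991 of the 16104 genes tested. The departure of the combination from the sum of both single treatments was taken on the log2 scale. It was called for 0 of 46 proteasome genes by limma and edgeR and for 1, PSMB8, by DESeq2. Of all genes tested, limma called 0.435% above the sum and 0.0124% below it. At an unadjusted p below 0.05 stood 6 proteasome genes, against 1410 of the 16104 genes tested. Of the 6, 3 were below the sum (PSMC1 at -0.88, PSMC6 at -0.64 and PSMB8 at -0.57) and 3 above it (PSMD3 at 0.75, PSMD14 at 0.59 and PSMC4 at 0.45). Unlike the comparisons between treated groups, this departure is computed with the DMSO libraries. DMSO replicates 1 and 2 lay below all other libraries for PSMC1, PSMC6 and PSMB8 and above them for PSMD14. The departures without these libraries are not given here.

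**Figure D4:**
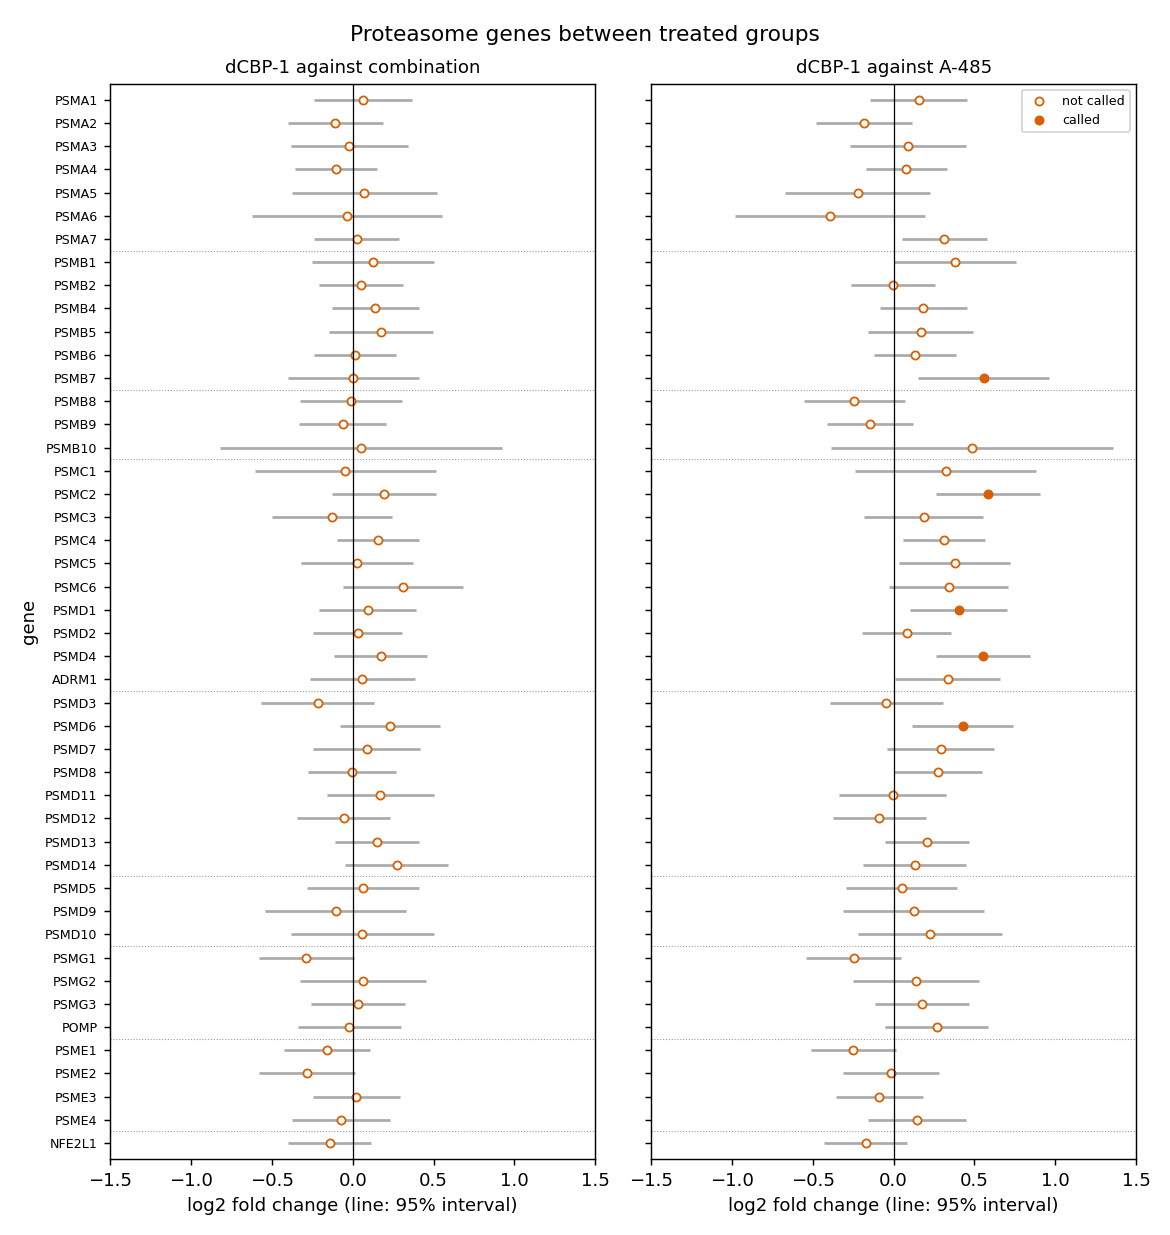
Log2 difference of each proteasome gene between dCBP-1 and the combination (left) and between dCBP-1 and A-485 (right), with 95% intervals; filled points are called. No point is filled on the left, and 5 are on the right: PSMB7, PSMC2, PSMD1, PSMD4 and PSMD6.

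The proteasome genes together made up a small share of the reads of a library, which was highest with dCBP-1. They took 0.607% ± 0.040 (SD, n = 3) of all reads in DMSO, 0.646% ± 0.0099 with A-485, 0.654% ± 0.021 with GNE-781, 0.674% ± 0.019 with the combination and 0.738% ± 0.011 with dCBP-1. Of the reads outside mitochondrial genes they took 0.756% ± 0.025 in DMSO, 0.764% ± 0.012, 0.769% ± 0.019 and 0.797% ± 0.013 with A-485, GNE-781 and the combination, and 0.865% ± 0.011 with dCBP-1. The 3 dCBP-1 libraries were at 0.853 to 0.876% of those reads and the other 12 at 0.730 to 0.811%, without overlap. On the deposited scale the summed normalised reads did overlap: 109530 to 113160 with dCBP-1, and 93343, 103490 and 115450 in DMSO. After TMM scaling they did not, with 111580 to 115290 in the dCBP-1 libraries and at most 109380 in any other, nor after median-ratio scaling, with 109230 to 114620 and at most 107830. A share moves with every other gene of the library, so these values describe the composition of the reads.

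Among genes around the proteasome, taken from lists of related functions, log2 fold changes with dCBP-1 ran from -2.12 to 1.05. Of 17 tested genes in a list of NFE2L1 processing factors, relatives and partners, 4 were called higher (23.5%, against 19.3% of all genes tested) and 7 lower (41.2%, against 18.5%) with dCBP-1, and the median log2 fold change was -0.29. NFE2L3, a close relative of NFE2L1, had 1592, 1931 and 2271 normalised reads in DMSO, 1812, 1267 and 1659.8 with A-485, 829.6, 1246 and 1074 with GNE-781, 749, 751 and 1337 with the combination and 481, 519 and 343 with dCBP-1. The dCBP-1 libraries were the lowest 3 of the 15, and the log2 fold change was -2.12 ± 0.20 (SE, n = 3 per group; adjusted p = 6.24e-10). SEL1L, an adaptor of the ubiquitin ligase that clears misfolded proteins from the endoplasmic reticulum, had 3111, 3045 and 3592 in DMSO and 1238, 1283 and 1382 with dCBP-1, without overlap, and -1.32 ± 0.13 (SE, n = 3 per group; adjusted p = 1.07e-09). The small MAF gene MAFF had 372, 339 and 339.9 in DMSO and 118 to 204 in the 12 treated libraries, all of them lower, and -1.12 ± 0.19 (SE, n = 3 per group; adjusted p = 3.21e-05); it was called lower with A-485 too (-1.02, adjusted p = 0.00405), though not without DMSO replicates 1 and 2 (-0.98, 0.177). BTRC, a substrate receptor of a ubiquitin ligase, rose from 172, 169.8 and 203 to 338, 375 and 362, with 0.98 ± 0.16 (SE, n = 3 per group; adjusted p = 1.48e-05). These 4 calls with dCBP-1 held without any single library and without DMSO replicates 1 and 2, where they stood at -2.36, -1.47, -1.08 and 0.82. Of the list's 11 calls, 5 ended without DMSO replicates 1 and 2: those of UFD1 (0.78 with all 3 DMSO libraries and 0.29 without these, adjusted p = 0.22), FAF2 (0.75 and 0.46, 0.0655) and FBXW7 (0.48 and 0.14, 0.638), which are the other 3 genes called higher, and those of NGLY1 (-0.57 and -0.54, 0.0833) and OGT (-0.46 and -0.52, 0.122). FBXW7 also lost its call without DMSO replicate 1 (0.42), DMSO replicate 2 (0.38) or dCBP-1 replicate 3 (0.33), and OGT without any 1 of the 3 DMSO libraries or dCBP-1 replicate 1 or 3 (-0.48 to -0.38).

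Between dCBP-1 and the combination, where no subunit gene was called, NFE2L3 was lower with dCBP-1 by limma at -1.04 ± 0.20 (SE, n = 3 per group; adjusted p = 0.000463) and SEL1L at -0.56 ± 0.13 (SE, n = 3 per group; adjusted p = 0.00366). Among 8 genes that regulate or adjoin the immunoproteasome genes, 3 were called lower with dCBP-1 against DMSO (37.5%, against 18.5% of all genes tested). IRF2, an interferon regulatory factor, had 865, 941 and 1272 in DMSO, 859.5 to 1191 with A-485, 562 to 613 with GNE-781, 449 to 594 with the combination and 214, 212 and 279 with dCBP-1. All dCBP-1 libraries were below all others, at -2.11 ± 0.16 (SE, n = 3 per group; adjusted p = 1.06e-11) against DMSO and -1.15 ± 0.16 (SE, n = 3 per group; adjusted p = 7.03e-06) against the combination. IRF1, which activates the immunoproteasome genes after interferon, had 2040.2, 2119.7 and 2522 in DMSO and 1090.5, 918 and 1067 with dCBP-1, at -1.12 ± 0.13 (SE, n = 3 per group; adjusted p = 3.44e-08) against DMSO and -0.70 ± 0.13 (SE, n = 3 per group; adjusted p = 0.000257) against the combination, without overlap in either. TAP1, the peptide transporter gene that lies between PSMB8 and PSMB9 with no other protein-coding gene between, had 603, 795 and 972 against 491, 613 and 629.6, with overlap and -0.43 ± 0.16 (SE, n = 3 per group; adjusted p = 0.0332). That call ended without DMSO replicate 2 (-0.41), DMSO replicate 3 (-0.27) or dCBP-1 replicate 1 (-0.32). The IRF1 and IRF2 calls held without any single library, and without DMSO replicates 1 and 2 (-1.30 and -2.44).

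**Figure D5:**
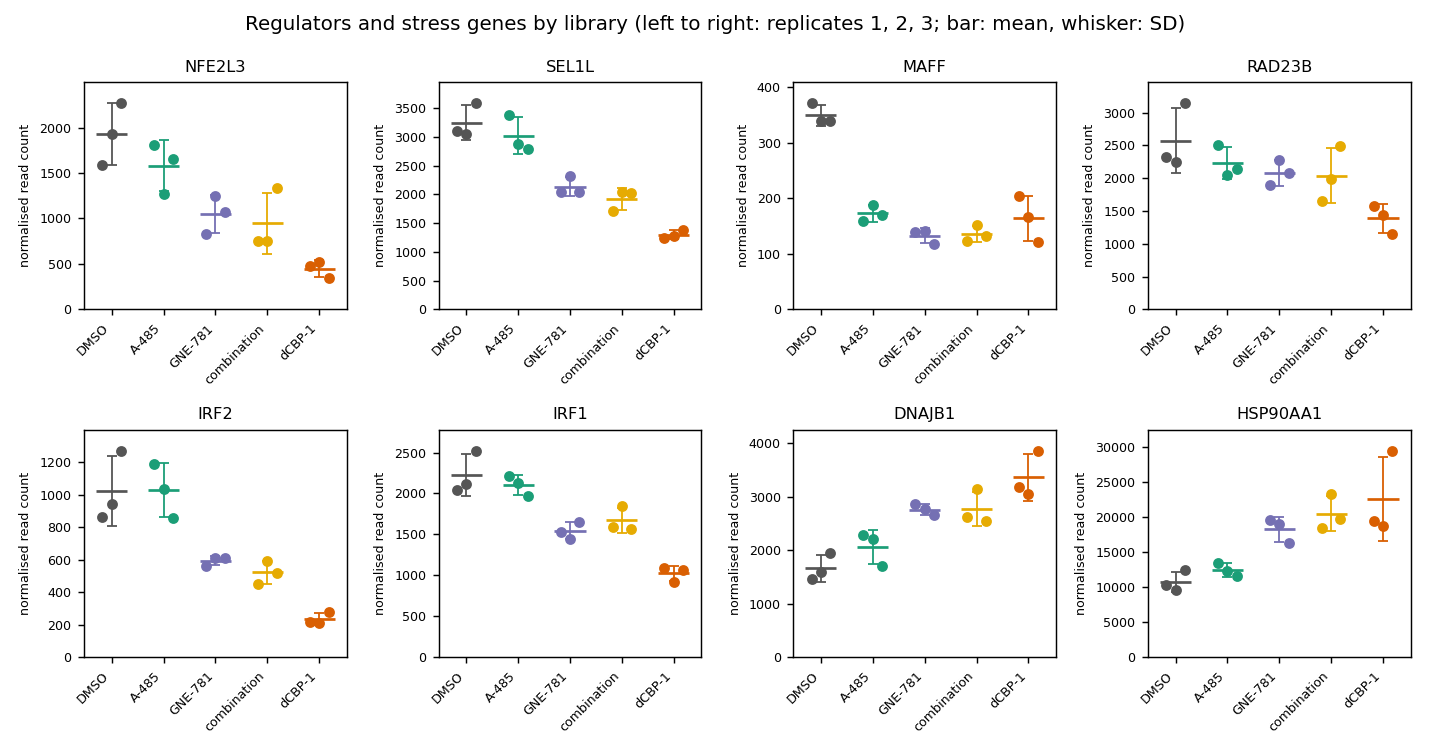
Normalised read counts of 8 genes around the proteasome; points are libraries in the order of replicates 1, 2 and 3, bars are group means and whiskers SD (n = 3). NFE2L3, SEL1L, IRF2 and IRF1 are lowest in the 3 dCBP-1 libraries, MAFF is lower in all 12 treated libraries, and DNAJB1 is higher in all 3 dCBP-1 libraries than in DMSO.

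Heat shock genes, which often rise with proteasome inhibition, were called in both directions: of 12, 5 were higher (41.7%, against 19.3% of all genes tested) and 4 lower (33.3%, against 18.5%) with dCBP-1. DNAJB1, a co-chaperone, had 1452, 1591 and 1947 in DMSO and 3176, 3051 and 3861 with dCBP-1, without overlap, and 1.02 ± 0.14 (SE, n = 3 per group; adjusted p = 1.06e-06). HSP90AA1, a stress-inducible chaperone, had 10333, 9531 and 12392 against 19435, 18756 and 29515, without overlap, and 1.05 ± 0.16 (SE, n = 3 per group; adjusted p = 6.6e-06). BAG3, a co-chaperone, was called higher (0.89), as were HSPA1A (0.90) and HSPA1B (0.71), near-identical copies whose reads cannot be assigned with certainty. The small heat shock gene HSPB1, with 678, 812 and 765 against 456, 418 and 339, was lower without overlap, at -0.90 ± 0.16 (SE, n = 3 per group; adjusted p = 6.8e-05). HMOX1 (-0.92), HSPE1 (-0.46) and HSF1 (-0.36) were also called lower. The values of DNAJB1, HSP90AA1, BAG3 and HSPB1 without DMSO replicates 1 and 2 were 0.78, 0.83, 0.74 and -0.93, all called, as was HMOX1 (-1.22); HSPA1B (0.43), HSPE1 (-0.48) and HSF1 (-0.23) were not. HSPE1 also lost its call without dCBP-1 replicate 1 (-0.35) or 2 (-0.41), and HSF1 without DMSO replicate 1 (-0.32) or 2 (-0.33) or dCBP-1 replicate 1 (-0.32) or 2 (-0.31). Rises were not confined to dCBP-1: against DMSO, GNE-781 gave 4 higher (33.3%, against 7.82%) and 3 lower (25%, against 8.81%). The combination gave 3 higher (25%, against 11.4%) and 0 lower (against 9.6%), and A-485 0 of each (against 0.348% and 1.79%). The GNE-781 calls of HSPA1A, HSF1 and HMOX1 ended when at least 1 single library was left out. Without DMSO replicates 1 and 2, GNE-781 stood at 0.50 for DNAJB1, 0.56 for HSP90AA1 and 0.67 for BAG3. The combination stood at 0.50, 0.72 and 0.56 for these genes. Except for HSP90AA1 with the combination, these calls ended in 1 of 19 alternatives each. Relative to GNE-781, dCBP-1 gave 0 higher and 0 lower (against 2.19% and 7.13%). Relative to the combination, dCBP-1 gave 1 and 1 (8.33% each, against 0.553% and 5.61%). Both calls, HSPA1B higher and HSPB1 lower, ended when at least 1 single library was left out. Relative to A-485, dCBP-1 gave 5 and 1 (41.7% and 8.33%, against 12.9% and 11.6%). There the calls of HSPA1A, BAG3 and HSPB1 ended in the same way. Those of HSPA1B, DNAJB1 and HSP90AA1 held when each single library was left out.

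Of 13 ubiquitin shuttles, deubiquitinases and proteasome-bound ligases, 2 were called higher (15.4%, against 19.3% of all genes tested) and 3 lower (23.1%, against 18.5%) with dCBP-1. RAD23B, which carries ubiquitinated proteins to the proteasome, had 2329, 2244 and 3149 in DMSO and 1580.3, 1440.2 and 1147 with dCBP-1, without overlap, and -0.89 ± 0.16 (SE, n = 3 per group; adjusted p = 3.87e-05). UBE3C, a ligase bound to the proteasome (-0.55), and the shuttle UBQLN4 (-0.75) were lower too. NUB1 was higher (0.75) and so was the shuttle UBQLN1 (0.42), and both lost their call without DMSO replicates 1 and 2 (0.28 and 0.23), whereas RAD23B (-1.19), UBE3C (-0.70) and UBQLN4 (-1.12) did not. UBQLN4 lost its call without DMSO replicate 3 (-0.57) or dCBP-1 replicate 2 (-0.66), and UBQLN1 without DMSO replicate 1 (0.34) or dCBP-1 replicate 1 (0.38). Of 6 genes for ubiquitin and its activating enzymes, RPS27A (0.86) and UBB (0.41) were called higher (33.3%, against 19.3% of all genes tested) and none lower (against 18.5%), and neither call remained without DMSO replicates 1 and 2 (0.59 and 0.35). UBB also lost its call without DMSO replicate 2 (0.38). Of 8 further subunits and assembly factors tested, the chaperone PSMG4 was lower (-0.59, and -0.66 without both DMSO libraries) and the inhibitor PSMF1 higher (0.46), which is 12.5% in each direction, against 18.5% of all genes tested lower and 19.3% higher. PSMF1 lost its call without DMSO replicate 1 (0.45), DMSO replicate 2 (0.33) or dCBP-1 replicate 3 (0.31), and without DMSO replicates 1 and 2 together (0.16).

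Some of these values rest on reads that can be shared between loci. Pseudogenes are named after 18 of the 47 proteasome genes, PSMC1, PSMB7 and PSMD14 among them, and 7 have an antisense or divergent gene by name, and neither the treatment of shared reads nor the strand setting of the counting is given in the sources used here.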

How the data were processed

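RNA from 15 libraries of MM.1S cells (5 groups of 3) was sequenced from transcript 3′ ends with a QuantSeq forward kit, per the labels' protocols. The deposited table holds 1 normalised value (signal) per Ensembl gene and library, and hg19 is the build in the submitters' processing notes; the aligner, counting program and annotation are not given in the sources used here. In each library 100% of values were whole multiples of 1 step (tolerance 0.01), so each value is a count of reads scaled by a single factor of its library, and whole reads could be restored. Totals were 13.1 to 18.3 M reads, and replicates differed beyond counting noise. The labels say that spike-in RNA was added; 0 rows of the table are spike-ins, so no value is absolute. Symbols matched 96.5% of gene IDs.

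Genes with a value of at least 5 in at least 3 libraries were kept. On log2(value + 1), limma 3.58.1 fitted 5 group means over all libraries with a mean-variance trend, and two-sided p-values were adjusted by Benjamini-Hochberg over all genes tested. Fold changes are on that scale, which understates the change of low genes. The alternatives were other scalings, pseudocounts, filters and variance settings, a replicate block, the count models of edgeR (4.0.16) and DESeq2 (1.42.0) on those whole reads, each library left out, and DMSO replicates 1 and 2 left out together; the closing section gives their effect. The fit was tested on simulated counts with the same spread setting for all genes and no shift of DMSO replicates 1 and 2. That test does not cover the split among the DMSO libraries or changes as small as most of those seen here. The members, gene lists, motifs and alternatives were chosen with earlier results of these data known. Values by library and full statistics are given for up to 3 members per role group with the smallest p in dCBP-1 against DMSO, for PSMB5, PSMB8, PSMB9, PSMB10, PSME1, PSME2, POMP and NFE2L1, and for up to 5 members with the smallest p in the other comparisons; promoters are shown for the smallest p in each direction, with and without the response element; other lists are given by counts and up to 4 genes, and genes beyond these were named after their values were seen. The result for 1 gene of the list of immunoproteasome regulators and neighbours is not reported here.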

Additional observations from a re-analysis of the deposited data

How the results depend on the processing

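Against DMSO, the count of proteasome genes called higher with dCBP-1 (12) stayed within 1.5 times under every alternative but the fit without DMSO replicates 1 and 2, where it was 1; leaving out single libraries gave 8 to 17. The count called lower (6) was 1 under quantile normalization, 1 without a filter and 3 without DMSO replicates 1 and 2, and 0 to 5 on leaving out single libraries. With the combination, 10 higher became 17 (quantile) and 0 (without DMSO replicates 1 and 2), with 4 to 14 on leaving out single libraries; 2 lower became 4 (median-ratio scaling), 7 (DESeq2) and 0, with 1 to 4. With GNE-781, 6 higher became 13 (quantile) and 1, with 3 to 13; 3 lower became 6 under TMM, median-ratio scaling, edgeR and DESeq2, 1 without a filter and 1 without DMSO replicates 1 and 2, with 1 to 3. With A-485, 1 higher became 2 under TMM, median-ratio and quantile scaling, 3 under DESeq2 (PSMB8, PSMC6 and PSMG3, not PSMC1), 1 under edgeR (PSMB8, not PSMC1), and 0 without a filter, with a robust variance prior, with the compared groups alone or without DMSO replicates 1 and 2, with 0 to 7; 1 lower became 2 under DESeq2 and 0 under TMM, median-ratio, quantile, no filter, the replicate block, edgeR, the compared groups alone and without DMSO replicates 1 and 2, with 0 to 1.

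Between dCBP-1 and GNE-781, 0 higher became 3 (TMM), 2 (median-ratio), 5 (quantile), 1 (edgeR), 3 (DESeq2) and 1 (compared groups alone), and 0 lower became 1 under DESeq2 and 1 with the compared groups alone; single libraries gave 0. Between dCBP-1 and A-485, 5 higher became 12 (quantile), 2 (no filter) and 3 (replicate block), with 1 to 5 on leaving out single libraries, and 0 lower became 2 (TMM), 3 (median-ratio), 2 (edgeR) and 3 (DESeq2), and stayed 0 on leaving out single libraries. Between the combination and A-485, 0 higher became 1 under quantile normalization and 0 to 1 without single libraries, and 0 lower became 1 under DESeq2. Between GNE-781 and A-485, 0 higher became 1 with the compared groups alone. For the departure from additivity, 0 lower became 1 under DESeq2 and 0 to 1 without single libraries. Between dCBP-1 and the combination, and between the combination and GNE-781, the count was 0 under every alternative run. PSMC1 reversed without DMSO replicates 1 and 2, to -0.075 with GNE-781 and -0.20 with A-485. The counts in this section are given without the share of all genes called in the same fit. They show only how far the proteasome calls depend on the setting. The cause of these changes was not tested.

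Replicate numbers did not pair the samples. Each gene's group mean was subtracted from its log2 values, and the remaining deviations were correlated between libraries of different groups. Same-numbered libraries correlated at -0.157 to 0.0995 and others at -0.18 to 0.171. With the replicate number as a block, dCBP-1 against DMSO gave 12 higher and 4 lower. Quantile normalization moved the median log2 fold change of the proteasome genes with dCBP-1 to 0.265, against 0.0715 over all genes. With 3 libraries per group, the median half-width of the 95% interval of a log2 difference of a proteasome gene was 0.313.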
